A study of Homo sapiens with 24 samples.

Results

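Type I interferon response genes are the genes that cells switch on after interferon alpha or beta binds its receptor. Their members here came from a list of 55 symbols that covers the receptor chains and their kinases, the transcription factors, the feedback inhibitors, the RNA sensors, the antiviral effectors and further induced genes. Of these, 50 were among the 13033 genes of the table, and the other 5 (OASL, IFITM1, IFI44, IFI44L and EPSTI1) were not analysed here. The list was drawn up by function and not by a measured value, but with earlier results of these data known. Every gene of the table reached 1 CPM (reads scaled to library size) in at least 2 libraries, and IFIT1 was the member that did so in fewer than 2 of the 8 DMSO libraries.

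The RNA came from 2 human acute myeloid leukaemia lines, Molm-14, which carries the internal tandem duplication FLT3-ITD in a receptor tyrosine kinase, and OCIAML-3 (OCI-AML3), which carries NRAS Q61L, a mutation of a RAS gene. Cells were given the solvent DMSO, or RMC-7977, a RAS(ON) inhibitor that binds RAS proteins in their active, GTP-loaded state, at 25 nM for 2 or 24 h. Poly(A) RNA was sequenced in 6 groups of 4 labelled libraries, and the table held 23 of the 24, because replicate 3 of OCIAML-3 at 24 h was not analysed here. The labels state no time for DMSO, so 1 set of DMSO libraries per line is the reference at 2 and at 24 h, and with 1 line per genotype the mutation and the line cannot be told apart.

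In the textbook pathway, interferon binds the chains IFNAR1 and IFNAR2, the bound kinases TYK2 and JAK1 phosphorylate STAT2, and STAT2 joins IRF9 in a complex that binds interferon-stimulated response elements in promoters. IRF7 then raises interferon output, while SOCS1 and USP18 restrain the receptor. The induced genes encode proteins that sense, bind, cut or modify viral RNA and proteins, and many of them are also transcribed at a low basal level without added interferon. In bulk RNA, fewer cells with a transcript and less transcript per cell cannot be told apart.

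Because the interferon-activated complex binds response elements in promoters, the members' promoters were read first. RefSeq promoters (GRCh38.p14, 250 bases before to 50 after each annotated start) were listed for 40 of the 50 measured members. The letters GAAANNGAAA, a core of the response element, were searched on both strands (TTTCNNTTTC on the other), and overlapping matches were counted. They were present in 22 of these 40 members (55%), in 431 of 10440 genes of the table with an entry (4.13%) and in 1255 of all 35116 entries (3.57%). The letters TTCNNNGAA, a core of the element bound by STAT dimers, which reads the same on both strands, were present in 9 of the 40 members (22.5%) and in 886 of the 10440 genes (8.49%). Windows around the first kind of match are printed below from 5′ to 3′ on the gene's strand, with the matches in capitals. The first 6 belong to members that rose in at least 1 line, and the last 2 to members that were called in no comparison with DMSO.
SAMD9: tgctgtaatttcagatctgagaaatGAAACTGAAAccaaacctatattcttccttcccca
SOCS1: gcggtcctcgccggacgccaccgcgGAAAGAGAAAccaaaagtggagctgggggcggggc
IFIT1: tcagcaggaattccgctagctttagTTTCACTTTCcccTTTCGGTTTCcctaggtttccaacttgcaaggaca
RSAD2: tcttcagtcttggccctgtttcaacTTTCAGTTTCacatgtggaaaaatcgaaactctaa
IFIT3: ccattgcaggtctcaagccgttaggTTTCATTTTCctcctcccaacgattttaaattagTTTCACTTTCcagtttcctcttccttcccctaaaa
IFI6: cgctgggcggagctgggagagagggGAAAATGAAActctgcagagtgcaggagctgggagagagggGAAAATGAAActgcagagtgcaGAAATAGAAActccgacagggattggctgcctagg
ISG15: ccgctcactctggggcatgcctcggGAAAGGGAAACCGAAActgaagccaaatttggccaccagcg
HERC5: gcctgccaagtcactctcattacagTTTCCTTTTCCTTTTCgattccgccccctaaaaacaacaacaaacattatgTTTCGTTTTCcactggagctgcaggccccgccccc

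The windows lie at chr7:93118081-93118140 (SAMD9, minus strand), chr16:11256283-11256342 (SOCS1, minus), chr10:89392482-89392554 (IFIT1, plus), chr2:6877607-6877666 (RSAD2, plus), chr10:89327816-89327909 (IFIT3, plus), chr1:27672251-27672373 (IFI6, minus), chr1:1013359-1013424 (ISG15, plus) and chr4:88456969-88457079 (HERC5, plus). HERC5 and IFI6 have 3 matches each in the printed window, and IFIT1, IFIT3 and ISG15 have 2 each. Of the 20 members with an entry that rose in either line, 10 had the GAAANNGAAA letters, and of the 20 that rose in neither, 12 had them. The TTCNNNGAA letters were in 2 of the first 20 (IRF9 and OAS1) and in 7 of the other 20. A match describes these letters and is not a measured binding site.

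Members rose with the drug in both lines, more of them at 24 h than at 2 h, and the transcription factor genes STAT2, IRF7 and IRF9 and the growth regulator gene SAMD9L were among them in each line. A gene is called higher (rose) or lower (fell) where limma's adjusted p was under 0.05 and the log2 fold change was at least 1 in size. In Molm-14 at 2 h, 5 of the 50 members rose, or 10%, against 4.3% of all genes. At 24 h, 16 rose, or 32%, against 11.4% of all genes. In OCIAML-3, 11 rose at 2 h, or 22%, against 3.23% of all genes, and 22 rose at 24 h, or 44%, against 18.4%. No member fell in Molm-14 at either time or in OCIAML-3 at 2 h by limma, where 2.98%, 6.57% and 3.35% of all genes fell, and limma voom on recovered reads also called 0 in each. At an unadjusted p under 0.05 with no fold limit, 11, 5 and 4 members lay below DMSO in these 3 comparisons. That limit was counted for members alone. At an adjusted p under 0.05, 10, 5 and 4 members lay below DMSO, beside 30.8%, 38.6% and 30.8% of all genes. USP18, which removes ISG15 from proteins, was the 1 member that fell in OCIAML-3 at 24 h, where 17.1% of all genes fell.

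Over the list as a whole, the median log2 fold change of the 50 members was 0.16 in Molm-14 at 2 h, 0.56 in Molm-14 at 24 h, 0.24 in OCIAML-3 at 2 h and 0.85 in OCIAML-3 at 24 h, and the median of all genes was between 0.00 and 0.02 in these comparisons. Counted by adjusted p alone, 16 members were above and 10 below DMSO in Molm-14 at 2 h, where 28.7% of all genes were above and 30.8% below. At 24 h in Molm-14, 38 were above and 5 below, beside 37.7% and 38.6% of all genes. OCIAML-3 had 28 above and 4 below at 2 h, beside 31.4% and 30.8%, and 44 above and 4 below at 24 h, beside 42.4% and 42%.

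**Figure D1:**
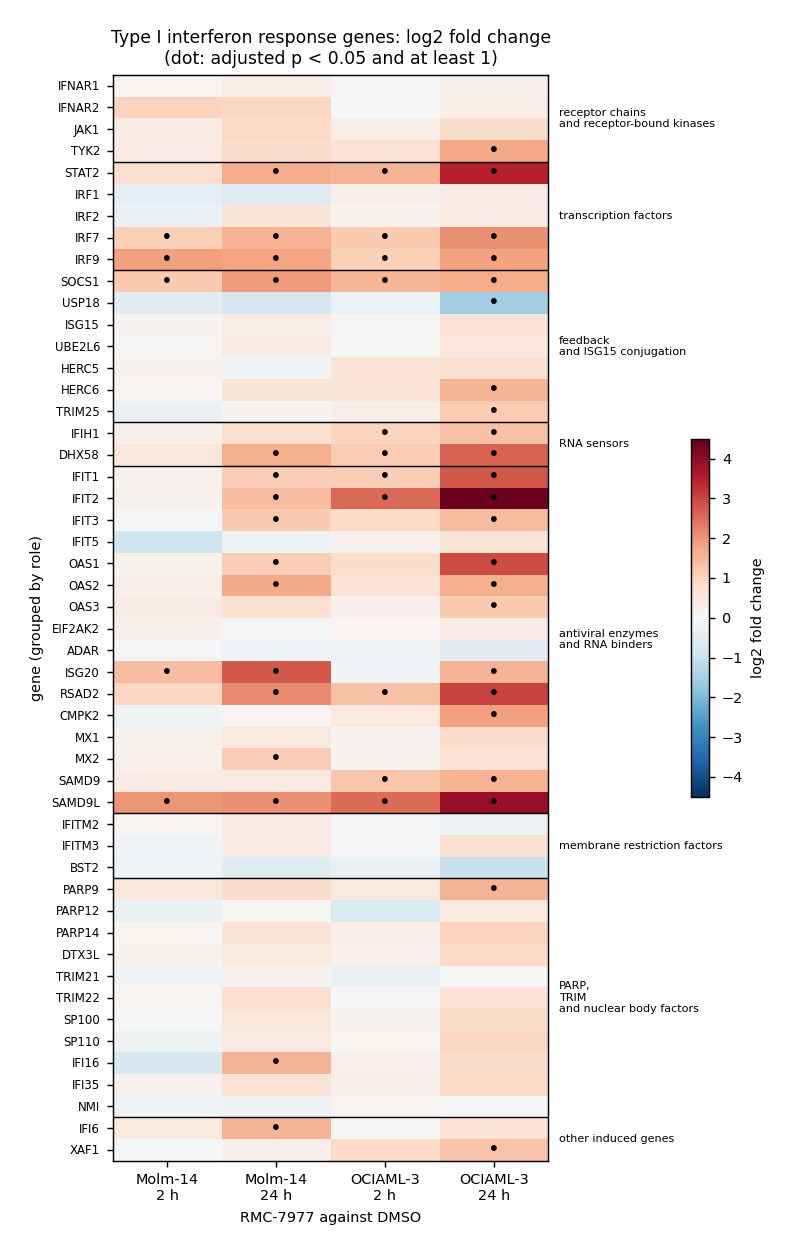
Colour gives the log2 fold change of RMC-7977 against DMSO for the 50 measured members (rows, grouped by role) in Molm-14 and OCIAML-3 at 2 and 24 h (columns), and a dot marks an adjusted p under 0.05 with a size of at least 1. Dots number 5 and 16 in the Molm-14 columns and 11 and 23 in the OCIAML-3 columns, and the single blue cell with a dot is USP18 in OCIAML-3 at 24 h.

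The mean log2 CPM over the members was from 3.48 to 3.55 in the 4 Molm-14 DMSO libraries, from 3.72 to 3.76 at 2 h and from 4.20 to 4.27 at 24 h. In OCIAML-3 it was from 3.43 to 3.48, from 3.87 to 3.95 and from 4.55 to 4.63. The 3 groups of each line did not overlap, and all libraries of a group lay close together. The libraries of drug and DMSO did not overlap for 15 members above and 10 below DMSO in Molm-14 at 2 h (25.4% and 28.2% of all genes) and for 35 above and 5 below at 24 h (34.7% and 36.6%). In OCIAML-3 they did not overlap for 26 above and 3 below at 2 h (27.1% and 27.3% of all genes) and for 43 above and 4 below at 24 h (41.3% and 41%).

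When each member rose was read from 3 tests per line. A member is early where it rose at 2 h, and late where it did not rise at 2 h, rose at 24 h, and stood above its 2 h level at an adjusted p under 0.05. Late genes were not counted outside the list. Molm-14 had 5 early members, namely IRF7, IRF9, SOCS1, ISG20 and SAMD9L, and all 5 were still called higher at 24 h. Its 11 late members were STAT2, DHX58, IFIT1, IFIT2, IFIT3, OAS1, OAS2, RSAD2, MX2, IFI16 and IFI6. OCIAML-3 had 11 early members, namely STAT2, IRF7, IRF9, SOCS1, IFIH1, DHX58, IFIT1, IFIT2, RSAD2, SAMD9 and SAMD9L, and all 11 were still called higher at 24 h. Its 11 late members were TYK2, HERC6, TRIM25, IFIT3, OAS1, OAS2, OAS3, ISG20, CMPK2, PARP9 and XAF1.

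Late did not always mean flat at 2 h. In OCIAML-3, 9 of the 11 late members were already above DMSO at 2 h by adjusted p, with changes under 1, and the exceptions were OAS3 and ISG20. In Molm-14 this held for 3 of the 11, STAT2, RSAD2 and IFI6, while IFI16 lay below DMSO at 2 h. Among the early members, 10 of the 11 in OCIAML-3 stood higher still at 24 h than at 2 h, all but SOCS1, and 3 of the 5 in Molm-14 did, IRF7, SOCS1 and ISG20. Between 2 and 24 h, 8 members rose in Molm-14 by the call rule (7.25% of all genes) and 12 in OCIAML-3 (11.6%). By the same rule limma called 0 members lower in Molm-14, where 3.38% of all genes fell and 4 members lay lower at an adjusted p under 0.05, and USP18 fell in OCIAML-3 (10.9%). By adjusted p alone, 36 members were above and 4 below their 2 h level at 24 h in Molm-14 (33.4% and 34.8% of all genes), and 41 above and 4 below in OCIAML-3 (38.5% and 39.1%).

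Set beside each other, 4 members were early in both lines (IRF7, IRF9, SOCS1 and SAMD9L) and 3 were late in both (IFIT3, OAS1 and OAS2). A further 5, STAT2, DHX58, IFIT1, IFIT2 and RSAD2, were early in OCIAML-3 and late in Molm-14, and ISG20 was the 1 member early in Molm-14 and late in OCIAML-3. In all, 25 members rose in at least 1 line, 13 of them in both, 9 in OCIAML-3 alone by the call and 3 in Molm-14 alone by the call (MX2, IFI16 and IFI6). A call in 1 line is not a test of the difference, which is given further on. Another 24 members were called in none of the 4 comparisons with DMSO. The late class and these overlaps of the lines were counted for members alone. No share of all genes stands beside them, so whether the counts differ from those of other genes was not tested.

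**Figure D2:**
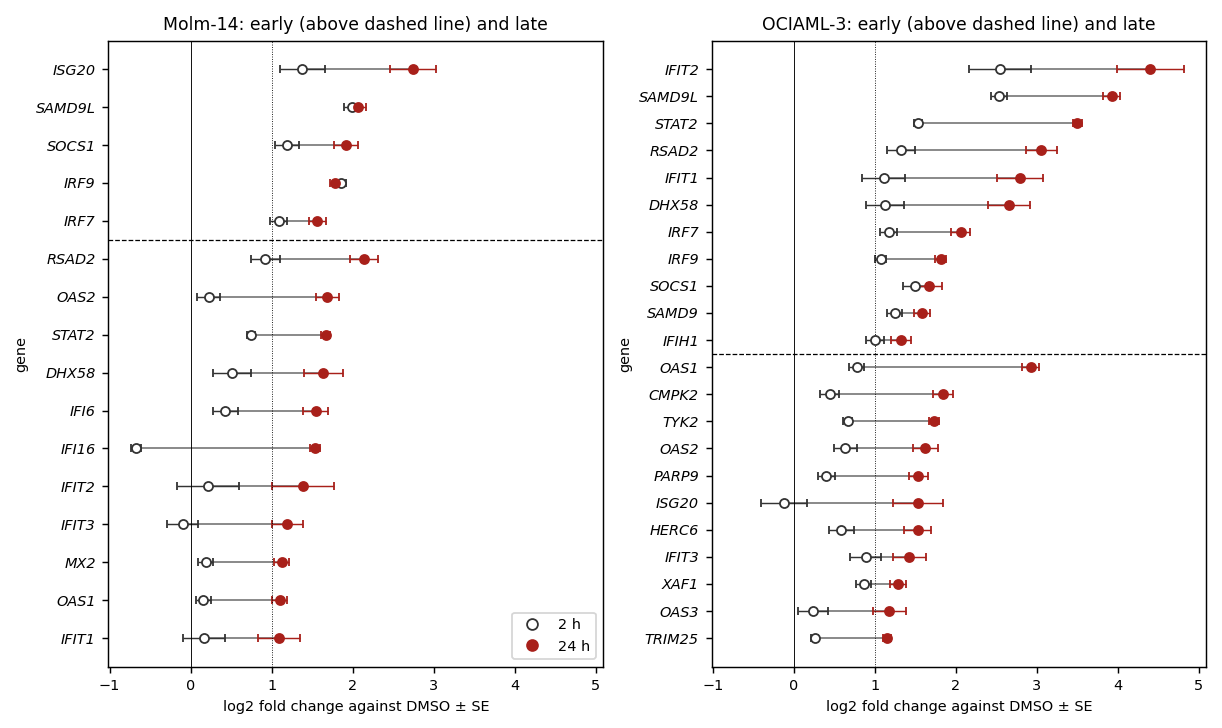
Each row is a member that rose in Molm-14 (left) or OCIAML-3 (right), the x axis is the log2 fold change against DMSO with its standard error, open circles are 2 h and filled circles 24 h. Early members lie above the dashed line, 5 in Molm-14 and 11 in OCIAML-3, and 11 late members lie below it in each line. The dotted line marks a log2 fold change of 1.

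Several calls sat near the limit of 1. With 1 CPM added before the log, 13 of the 55 calls against DMSO ended. They were DHX58 (0.97), IFIT1 (0.61), IFIT2 (0.95), IFIT3 (0.91), MX2 (0.91), OAS1 (0.99) and RSAD2 (0.99) in Molm-14 at 24 h, DHX58 (0.79), IFIH1 (0.86), IFIT1 (0.48) and IFIT2 (0.86) in OCIAML-3 at 2 h, and ISG20 (0.87) and OAS3 (0.85) in OCIAML-3 at 24 h, each value a log2 fold change on that scale. The counts that rose then were 9 in Molm-14 at 24 h and 7 in OCIAML-3 at 2 h. Over all 13033 genes they went from 1481 to 1099 and from 421 to 188 in these comparisons. Of the other 42 calls, 40 held under all alternatives run, and IFIT1 and IFIT2 in OCIAML-3 at 24 h held in all but the one limited to genes of at least 5 CPM, which does not test them.

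Of the 4 receptor chains and receptor-bound kinases, 1 rose, TYK2, in OCIAML-3 at 24 h (25%, beside 18.4% of all genes). None rose in OCIAML-3 at 2 h or in Molm-14, and IFNAR2 came closest in Molm-14. In that line, IFNAR2, the chain that carries JAK1, was at 51.9, 47.5, 47.0 and 49.2 CPM in DMSO, 94.7, 99.4, 96.7 and 99.8 CPM at 2 h, and 93.0, 94.0, 95.7 and 92.9 CPM at 24 h. In OCIAML-3 it was at 89.9, 85.6, 82.5 and 93.6 CPM in DMSO, 88.5, 88.0, 87.9 and 80.7 CPM at 2 h, and 105, 110 and 108 CPM at 24 h. The 4 Molm-14 DMSO libraries were lower than any other library, and the 2 h and 24 h libraries of that line overlapped. In OCIAML-3 the 2 h libraries overlapped DMSO and those of 24 h were above it. Its log2 fold change in Molm-14 was 0.998 ± 0.04 at 2 h (SE; limma, adjusted p = 2.95e-18) and 0.94 ± 0.04 at 24 h, just short of a call at both times, and -0.03 ± 0.04 and 0.30 ± 0.05 in OCIAML-3. With the library totals as scale, or with a median-of-ratios scale, IFNAR2 was called in Molm-14 at 2 h (1.022 and 1.015) and at 24 h (1.04 and 1.01), and leaving out DMSO replicate 1 or 4, or 2 h replicate 1 or 3, also gave a call at 2 h (from 1.00 to 1.03).

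IFNAR1, the chain that carries TYK2, was at 57.2, 57.7, 55.0 and 61.1 CPM in DMSO, 57.5, 66, 59.1 and 65.3 CPM at 2 h, and 70.2, 71.1, 68.9 and 77.7 CPM at 24 h in Molm-14. Its OCIAML-3 libraries were at 66.9, 65.0, 61.8 and 68.0 CPM in DMSO, 71.0, 69.0, 67.8 and 63.6 CPM at 2 h, and 76.8, 78.3 and 76.2 CPM at 24 h. The 24 h libraries were the highest of each line and did not overlap DMSO, and those of 2 h overlapped DMSO in both lines. All 4 log2 fold changes of IFNAR1 lay between 0.05 and 0.32, so it was not called. Both chains are annotated on chromosome 21, with 58.8 kb between the genes.

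JAK1 was at 57.1, 54.3, 60.6 and 59.3 CPM in DMSO, 71.8, 71.8, 73.4 and 73.2 CPM at 2 h, and 107, 107, 108 and 108 CPM at 24 h in Molm-14. The OCIAML-3 libraries had 83.1, 89.6, 82.2 and 88.0 CPM in DMSO, 106, 106, 106 and 102 CPM at 2 h, and 147, 151 and 151 CPM at 24 h. The groups of JAK1 stood in the same order in both lines, DMSO, 2 h, 24 h, with no overlap. On the log2 scale JAK1 was at 0.33 ± 0.04 and 0.90 ± 0.04 at 2 and 24 h in Molm-14 and 0.29 ± 0.04 and 0.81 ± 0.04 in OCIAML-3, without reaching 1 (limma, adjusted p at 24 h = 7.81e-19 and 3.57e-17).

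TYK2 was at 243, 251, 239 and 228 CPM in DMSO, 345, 309, 298 and 298 CPM at 2 h, and 428, 438, 409 and 374 CPM at 24 h in Molm-14. OCIAML-3 gave 208, 207, 200 and 185 CPM in DMSO, 310, 312, 302 and 346 CPM at 2 h, and 689, 678 and 620 CPM at 24 h. As with JAK1, the 3 groups did not overlap in either line, and the OCIAML-3 libraries at 24 h were the highest of all. TYK2 was the 1 gene of these 4 that rose, in OCIAML-3 at 24 h (1.73 ± 0.06, SE; limma, adjusted p = 4.59e-22), beside 0.67 ± 0.05 at 2 h there and 0.78 ± 0.05 in Molm-14 at 24 h.

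Of the 5 transcription factor genes, STAT2, IRF7 and IRF9 rose in both lines, and IRF1 and IRF2 were not called. In Molm-14, 2 factors rose at 2 h and 3 at 24 h (40% and 60%, beside 4.3% and 11.4% of all genes). In OCIAML-3, 3 rose at each time (60%, beside 3.23% and 18.4%). STAT2, the partner of IRF9 in the interferon-activated complex, is annotated at chr12:56341597-56360155 on the minus strand. In Molm-14 it was at 38.6, 41.1, 39.7 and 36.2 CPM in DMSO, 63.6, 66.2, 62.5 and 67.3 CPM at 2 h, and 126, 132, 117 and 118 CPM at 24 h. Its OCIAML-3 libraries were at 28.6, 31.3, 29.4 and 30.1 CPM in DMSO, 90.7, 83.1, 80.5 and 91.0 CPM at 2 h, and 339, 346 and 326 CPM at 24 h. No library of 1 group overlapped another group of the same line. The log2 fold change was 0.74 ± 0.05 at 2 h and 1.66 ± 0.05 at 24 h in Molm-14, and 1.53 ± 0.05 and 3.5 ± 0.05 in OCIAML-3 (SE; limma, adjusted p at 24 h = 9.5e-23 and 2.24e-30). The response was larger in OCIAML-3 by 0.79 ± 0.07 at 2 h and 1.83 ± 0.07 at 24 h (limma, adjusted p = 2.26e-10 and 4.56e-19).

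IRF9, the DNA-binding partner of the complex, is annotated at chr14:24161053-24166565 on the plus strand. It was at 11.5, 10.3, 10.6 and 9.33 CPM in DMSO, 39.5, 36.8, 35.7 and 38.4 CPM at 2 h, and 36.6, 34.6, 34.7 and 37.3 CPM at 24 h in Molm-14. For OCIAML-3 the values were 19.5, 17.4, 19.7 and 18.1 CPM in DMSO, 38.7, 39.7, 37.8 and 40.4 CPM at 2 h, and 62.7, 71.6 and 62.7 CPM at 24 h. In Molm-14 the 2 h and 24 h libraries overlapped and all stood above DMSO, while in OCIAML-3 the 3 groups rose in steps with no overlap. Its log2 fold change in Molm-14 was 1.85 ± 0.06 at 2 h and 1.78 ± 0.06 at 24 h, and 24 h minus 2 h was -0.07 ± 0.06 (limma, adjusted p = 0.329). In OCIAML-3 it was 1.07 ± 0.06 and 1.81 ± 0.07, with 24 h above 2 h by 0.74 ± 0.07. At 2 h the response was smaller in OCIAML-3 (-0.78 ± 0.09, limma, adjusted p = 1.89e-08), and at 24 h the difference was 0.03 ± 0.09 with an adjusted p of 0.794.

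IRF7, which drives interferon alpha genes after infection, was at 22.4, 24.9, 20.7 and 19.8 CPM in DMSO, 54.4, 44.1, 43.6 and 44.5 CPM at 2 h, and 69.9, 63.5, 65.4 and 60.1 CPM at 24 h in Molm-14. The libraries of OCIAML-3 were at 15.6, 13.6, 15.9 and 10.0 CPM in DMSO, 31.1, 29.6, 28.5 and 33.0 CPM at 2 h, and 60.2, 53.1 and 56.3 CPM at 24 h. Groups did not overlap in either line, although Molm-14 replicate 1 at 2 h was above the other 3 of its group and OCIAML-3 DMSO replicate 4 was below its own. IRF7 rose at both times in both lines, by 1.09 ± 0.11 and 1.56 ± 0.11 in Molm-14 and 1.17 ± 0.11 and 2.06 ± 0.11 in OCIAML-3 (log2, SE; limma, adjusted p at 2 h = 2.54e-09 and 7.09e-10).

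IRF1, an activator that responds to both interferon types, was at 35.9, 42.1, 38.0 and 39.2 CPM in DMSO, 30.3, 28.7, 27.5 and 28.7 CPM at 2 h, and 25.3, 25.3, 26.2 and 27.5 CPM at 24 h in Molm-14. Its level in OCIAML-3 was 44.2, 40.5, 43.2 and 42.7 CPM in DMSO, 53.2, 51.0, 48.3 and 49.8 CPM at 2 h, and 54.3, 56.2 and 54.2 CPM at 24 h. The drug libraries were all below DMSO in Molm-14 and all above DMSO in OCIAML-3. The log2 fold changes were -0.43 ± 0.05 and -0.57 ± 0.05 in Molm-14 and 0.25 ± 0.05 and 0.36 ± 0.06 in OCIAML-3, none past the call. The difference in response between the lines was 0.67 ± 0.07 at 2 h and 0.94 ± 0.08 at 24 h (limma, adjusted p = 9.7e-09 and 5.2e-12).

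IRF2, which binds the same element and is known mainly as a repressor, was at 16.1, 17.5, 14.4 and 17.0 CPM in DMSO, 13.3, 13.6, 12.6 and 13.0 CPM at 2 h, and 23.5, 24.8, 23.8 and 22.4 CPM at 24 h in Molm-14. Its values in OCIAML-3 were 16.9, 17.6, 14.3 and 15.8 CPM in DMSO, 19.4, 16.1, 18.3 and 17.3 CPM at 2 h, and 19.5, 21.2 and 21.4 CPM at 24 h. In Molm-14 the 2 h libraries were below DMSO and the 24 h libraries above it, whereas in OCIAML-3 the 2 h libraries overlapped DMSO and those of 24 h were above it. IRF2 was not called, with log2 fold changes of -0.30 ± 0.07 and 0.54 ± 0.07 in Molm-14 and 0.14 ± 0.07 and 0.36 ± 0.08 in OCIAML-3.

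**Figure D3:**
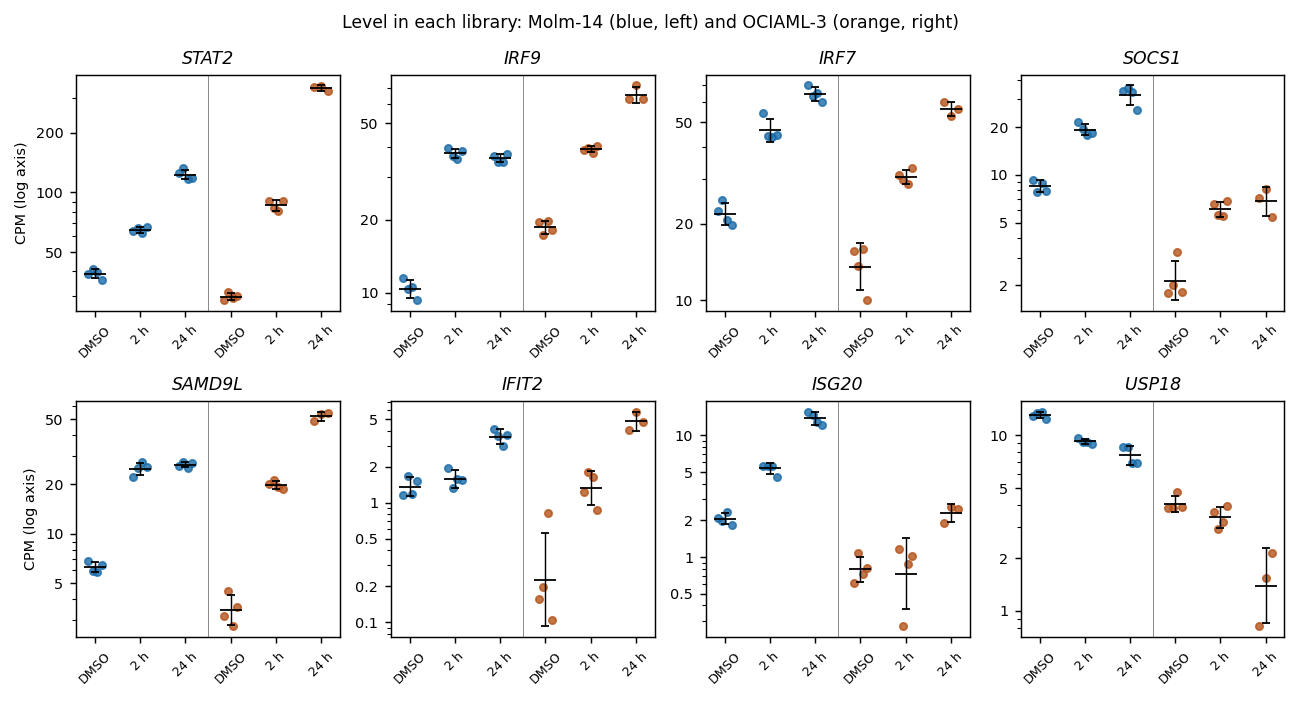
Each point is the CPM of 1 library on a log axis for 8 members, with Molm-14 on the left (blue) and OCIAML-3 on the right (orange) of each panel; the long bar is the mean on the log scale and the whiskers are 1 SD on that scale. STAT2 reached from 326 to 346 CPM in OCIAML-3 at 24 h, IRF9 at 2 and 24 h overlapped in Molm-14, and USP18 was lowest in OCIAML-3 at 24 h, from 0.816 to 2.14 CPM.

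Among the genes of feedback and ISG15 conjugation, SOCS1, which blocks the receptor-bound kinases, rose in both lines at both times. It was at 9.35, 7.81, 8.87 and 7.91 CPM in DMSO, 21.5, 19.6, 17.9 and 18.5 CPM at 2 h, and 33.9, 35.3, 33.6 and 25.8 CPM at 24 h in Molm-14. The values of OCIAML-3 were 1.78, 2.00, 3.27 and 1.82 CPM in DMSO, 6.51, 5.54, 5.49 and 6.82 CPM at 2 h, and 7.18, 8.17 and 5.41 CPM at 24 h. All drug libraries were above all DMSO libraries of their line, and in OCIAML-3 those of 2 and 24 h overlapped. SOCS1 changed by 1.19 ± 0.15 and 1.92 ± 0.15 in Molm-14 and 1.5 ± 0.15 and 1.67 ± 0.16 in OCIAML-3 (SE; limma, adjusted p at 24 h = 1.33e-12 and 1.07e-10).

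USP18, which both removes ISG15 and blocks IFNAR2, lay below DMSO in its mean in all 4 comparisons. In Molm-14 it was at 12.9, 13.4, 13.6 and 12.4 CPM in DMSO, 9.63, 9.13, 9.16 and 8.97 CPM at 2 h, and 8.59, 8.61, 6.91 and 6.93 CPM at 24 h. In OCIAML-3 it was at 3.87, 3.83, 4.77 and 3.90 CPM in DMSO, 3.66, 2.92, 3.20 and 3.97 CPM at 2 h, and 0.816, 1.55 and 2.14 CPM at 24 h. Molm-14 libraries stood in 3 steps with no overlap, DMSO highest, while in OCIAML-3 the 2 h libraries overlapped DMSO and the 24 h libraries were the lowest. Its log2 fold change was -0.50 ± 0.17 and -0.76 ± 0.17 in Molm-14, short of a call, and -0.26 ± 0.17 and -1.55 ± 0.19 in OCIAML-3, where USP18 fell at 24 h (SE; limma, adjusted p = 7.66e-09). The 3 libraries of that group held 76.6 reads of USP18 in all.

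The other 5 members of this group make, load or attach ISG15, the ubiquitin-like protein that interferon induces. ISG15 itself had means of 11.9, 13.0 and 14.3 CPM over the 3 Molm-14 groups and of 5.02, 5.25 and 7.59 CPM over those of OCIAML-3, and its log2 fold change was from 0.06 to 0.60. UBE2L6, its conjugating enzyme, and HERC5, its main ligase, were not called either, with values of up to 0.46 and 0.73. HERC6, a relative of HERC5 (1.53 ± 0.17), and TRIM25, an ISG15 and ubiquitin ligase (1.15 ± 0.05), rose in OCIAML-3 at 24 h, beside 0.56 ± 0.15 and 0.13 ± 0.04 in Molm-14. Of the 7 members of the group, 1 rose at each time in Molm-14 and at 2 h in OCIAML-3 (14.3%, beside 4.3%, 11.4% and 3.23% of all genes), and 3 rose (42.9%, beside 18.4%) and 1 fell in OCIAML-3 at 24 h.

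The RNA sensors IFIH1 (MDA5) and DHX58 (LGP2), helicases that recognise double-stranded RNA, both rose in OCIAML-3 at both times. That was 2 of 2 at each time, beside 3.23% and 18.4% of all genes. In Molm-14 DHX58 alone rose, at 24 h (50%, beside 11.4%). DHX58 had means of 0.872 ± 0.215, 1.3 ± 0.485 and 2.65 ± 0.178 CPM in Molm-14 (SD, n = 4) and of 1.65 ± 0.301, 3.61 ± 0.650 and 10.3 ± 0.0833 CPM in OCIAML-3 (n = 4, 4 and 3). It rose by 1.64 ± 0.24 in Molm-14 at 24 h and by 1.13 ± 0.24 and 2.65 ± 0.26 in OCIAML-3. IFIH1 rose in OCIAML-3 by 1.00 ± 0.11 and 1.32 ± 0.12, and was at 0.68 ± 0.11 in Molm-14 at 24 h. Its 2 h call lay on the limit: without OCIAML-3 DMSO replicate 1, 2 or 4, or 2 h replicate 1, 2 or 3, it was from 0.97 to 0.998 and no longer called.

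Antiviral enzymes and RNA binders form the largest group, with 16 measured members, of which 2 rose at 2 h and 9 at 24 h in Molm-14 (12.5% and 56.2%, beside 4.3% and 11.4% of all genes), and 5 at 2 h and 11 at 24 h in OCIAML-3 (31.2% and 68.8%, beside 3.23% and 18.4%). SAMD9L, which restrains growth and viral replication, is annotated at chr7:93130055-93148369. In Molm-14 it was at 6.86, 5.96, 5.89 and 6.49 CPM in DMSO, 22.1, 25.1, 27.2 and 25.5 CPM at 2 h, and 26.0, 27.2, 25.2 and 27.1 CPM at 24 h. OCIAML-3 libraries held 3.17, 4.47, 2.74 and 3.6 CPM in DMSO, 20.1, 21.3, 19.2 and 18.9 CPM at 2 h, and 48.5, 53.7 and 54.4 CPM at 24 h. In Molm-14 the 2 h and 24 h libraries overlapped and all stood above DMSO, and in OCIAML-3 the 3 groups stepped up with no overlap. Its log2 fold change was 1.99 ± 0.10 and 2.07 ± 0.10 in Molm-14 and 2.53 ± 0.10 and 3.92 ± 0.11 in OCIAML-3 (SE; limma, adjusted p at 2 h = 5.37e-17 and 2.41e-19). The level at 24 h minus that at 2 h was 0.08 ± 0.10 in Molm-14 (limma, adjusted p = 0.484) and 1.39 ± 0.11 in OCIAML-3 (adjusted p = 5.26e-13).

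SAMD9, its neighbour 12 kb away, rose in OCIAML-3 by 1.24 ± 0.09 and 1.58 ± 0.10. In Molm-14 SAMD9 was at 0.32 ± 0.09 and 0.41 ± 0.09, above DMSO by adjusted p but short of a call. The response of SAMD9 was larger in OCIAML-3 by 1.17 ± 0.14 at 24 h (limma, adjusted p = 1.25e-08).

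ISG20, an exonuclease that degrades single-stranded RNA, was at 2.08, 1.99, 2.35 and 1.84 CPM in DMSO, 5.62, 5.66, 5.62 and 4.59 CPM at 2 h, and 15.7, 14.8, 12.8 and 12.2 CPM at 24 h in Molm-14. Libraries of OCIAML-3 had 0.616, 1.08, 0.730 and 0.816 CPM in DMSO, 1.16, 0.268, 0.874 and 1.03 CPM at 2 h, and 1.89, 2.56 and 2.48 CPM at 24 h. Molm-14 showed 3 rising steps with no overlap, whereas in OCIAML-3 the 2 h libraries overlapped DMSO, with replicate 2 at 0.268 CPM the lowest, and only those of 24 h stood above. Its log2 fold change was 1.38 ± 0.28 and 2.75 ± 0.28 in Molm-14 and -0.12 ± 0.28 and 1.53 ± 0.30 in OCIAML-3 (SE; limma, adjusted p at 24 h = 7.81e-10 and 4.13e-05). The response was smaller in OCIAML-3, with a difference of -1.5 ± 0.40 at 2 h and -1.21 ± 0.41 at 24 h (limma, adjusted p = 0.00354 and 0.0119).

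RSAD2 (viperin), which makes a chain-terminating nucleotide, was at 0.380, 0.430, 0.498 and 0.353 CPM in DMSO, 0.846, 0.817, 0.591 and 0.910 CPM at 2 h, and 1.51, 1.92, 1.91 and 1.94 CPM at 24 h in Molm-14. The level of OCIAML-3 was 1.95, 2.33, 2.02 and 2.00 CPM in DMSO, 6.07, 5.34, 4.0 and 5.47 CPM at 2 h, and 15.5, 16.5 and 19.9 CPM at 24 h. Each line showed 3 steps with no overlap, from under 0.5 CPM in the Molm-14 DMSO libraries, where the 4 together held 22.0 reads. The log2 fold change of RSAD2 was 0.92 ± 0.17 and 2.14 ± 0.17 in Molm-14 and 1.32 ± 0.17 and 3.05 ± 0.19 in OCIAML-3 (SE; limma, adjusted p at 24 h = 2.19e-12 and 1.73e-15). In Molm-14 at 2 h it was called by limma voom (1.07), and without DMSO replicate 3 (1.01) or 2 h replicate 3 (1.06). CMPK2, a mitochondrial nucleotide kinase that lies head to head with RSAD2, rose in OCIAML-3 at 24 h (1.84 ± 0.13) and was at 0.08 ± 0.12 in Molm-14. The exons of both genes overlap on opposite strands, and the strand setting of the counting is not given in the sources used here, so some of their reads cannot be told apart.

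The IFIT genes encode proteins that bind foreign RNA ends and form a cluster on chromosome 10. IFIT2 was at 1.16, 1.67, 1.17 and 1.53 CPM in DMSO, 1.97, 1.31, 1.56 and 1.54 CPM at 2 h, and 4.12, 3.58, 2.96 and 3.71 CPM at 24 h in Molm-14. Its OCIAML-3 values were 0.156, 0.197, 0.821 and 0.105 CPM in DMSO, 1.22, 1.79, 1.64 and 0.863 CPM at 2 h, and 4.05, 5.77 and 4.69 CPM at 24 h, where 0.105 CPM is the value of a library with no reads. Molm-14 libraries at 2 h overlapped DMSO and those at 24 h were above, while in OCIAML-3 all drug libraries were above DMSO, whose replicate 3 stood apart at 0.821 CPM. Over the 4 comparisons IFIT2 had the largest log2 fold change of the list, 4.40 ± 0.41 in OCIAML-3 at 24 h (SE; limma, adjusted p = 3.35e-10), from 19.1 reads in all over the 4 DMSO libraries, beside 2.55 ± 0.38 at 2 h and 1.38 ± 0.38 in Molm-14 at 24 h. Exons of IFIT2 overlap those of LIPA, a gene of the table, on the opposite strand. With the strand setting not given, some reads of IFIT2 and LIPA may not be told apart.

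Of the 4 genes of the cluster, 3 rose in at least 1 line. IFIT1 rose by 1.09 ± 0.26 in Molm-14 at 24 h and by 1.11 ± 0.26 and 2.79 ± 0.28 in OCIAML-3, and IFIT3 by 1.19 ± 0.19 and, at 24 h in OCIAML-3, by 1.43 ± 0.21. IFIT5, 8.1 kb from IFIT1, was not called: it was at -0.91 ± 0.20 in Molm-14 at 2 h, below DMSO by adjusted p, and from -0.25 to 0.60 in the other 3 comparisons. The IFIT1 call at 24 h in Molm-14 ended without DMSO replicate 1 (0.98), 24 h replicate 1 (0.90) or 24 h replicate 3 (0.99), and that at 2 h in OCIAML-3 ended without DMSO replicate 2 (0.96) or 2 h replicate 1 (0.97). In Molm-14, IFIT5 was called lower at 2 h without DMSO replicate 2 (-1.05).

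The OAS genes make a second messenger of the antiviral response, and lie next to each other on chromosome 12. OAS1 rose late in both lines, by 1.10 ± 0.09 in Molm-14 and 2.92 ± 0.10 in OCIAML-3, from means of 6.21 ± 0.393 and 4.85 ± 0.619 CPM in DMSO to 13.3 ± 1.3 and 36.5 ± 2.16 CPM (SD, n = 4, 4, 4 and 3). OAS2 rose by 1.69 ± 0.14 and 1.62 ± 0.15 at 24 h, and OCIAML-3 minus Molm-14 was -0.07 ± 0.21 (limma, adjusted p = 0.789). OAS3, between them, rose in OCIAML-3 at 24 h (1.18 ± 0.20) and was at 0.69 ± 0.19 in Molm-14. OASL was not analysed here.

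MX1 and MX2, dynamin-like GTPases that trap viral capsids, lie 10.9 kb apart on chromosome 21. MX2 rose in Molm-14 at 24 h (1.12 ± 0.10), from a mean of 2.89 ± 0.171 to 6.32 ± 0.789 CPM (SD, n = 4 each). MX2 was at 0.66 ± 0.11 in OCIAML-3, where DMSO libraries already held from 46.8 to 54.8 CPM. MX1 was not called, with 0.40 ± 0.16 and 0.83 ± 0.17 at 24 h, although with library totals as scale it was called in OCIAML-3 (1.002). EIF2AK2 (PKR), which halts translation, and ADAR, which edits double-stranded RNA, were not called, with log2 fold changes between -0.47 and 0.36 in all 4 comparisons.

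Of the membrane restriction factors, IFITM2 and IFITM3 block viral entry and BST2 (tetherin) holds budding virus at the cell surface. None of the 3 was called by limma, and at an adjusted p under 0.05 BST2 lay below DMSO in all 4 comparisons, from -0.18 ± 0.06 in Molm-14 at 2 h to -0.99 ± 0.06 in OCIAML-3 at 24 h. Means of BST2 were 87.9, 77.4 and 60.9 CPM over the Molm-14 groups and 163, 131 and 81.5 CPM over those of OCIAML-3. Without OCIAML-3 DMSO replicate 2 or 4, or 24 h replicate 1, the OCIAML-3 value at 24 h was -1.0, -1.06 or -1.02 and BST2 was called lower. IFITM2 and IFITM3 are near-identical in sequence, so how reads were divided between them is uncertain.

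Of the 11 PARP, TRIM and nuclear body factors, 1 rose in each line at 24 h (9.09%), below the share of all genes in both lines (11.4% and 18.4%). At 2 h limma called 0 of them. By adjusted p alone 3 were above and 4 below DMSO in Molm-14, beside 28.7% and 30.8% of all genes. In OCIAML-3, 6 were above and 2 below, beside 31.4% and 30.8%. IFI16, a nuclear DNA sensor, rose in Molm-14 at 24 h by 1.54 ± 0.06 after lying below DMSO at 2 h (-0.68 ± 0.06), with means of 12.8 ± 0.861, 7.98 ± 0.785 and 36.9 ± 1.43 CPM (SD, n = 4 each). Its step from 2 to 24 h, 2.21 ± 0.06, was the largest of the list in Molm-14 (limma, adjusted p = 1.12e-23). In OCIAML-3 IFI16 was at 0.81 ± 0.06 at 24 h. PARP9, an ADP-ribosyltransferase that works with the ubiquitin ligase DTX3L, rose in OCIAML-3 at 24 h (1.54 ± 0.12). DTX3L was at 0.85 ± 0.06 there, and the exons of both genes overlap on opposite strands.

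The other 8 of these members were not called against DMSO. PARP14, which modifies STAT proteins, was closest, at 0.99 ± 0.05 in OCIAML-3 at 24 h, and it was called with library totals (1.165), with median of ratios (1.06), and without DMSO replicate 3 (1.00) or 24 h replicate 1 (1.02). With library totals SP110 (1.09), IFI35 (1.035) and DTX3L (1.019) were called there too, and the members that rose in OCIAML-3 at 24 h then numbered 27 in place of 22. All genes that rose there numbered 2904 in place of 2392. SP100 and SP110, of the nuclear bodies, were at 0.82 ± 0.06 and 0.92 ± 0.07 in OCIAML-3 at 24 h. IFI35 was at 0.86 ± 0.08 in the same comparison, and NMI, its binding partner, was under 0.5 in size in all 4. TRIM22, which restricts viral transcription, had similar values in both lines at 24 h (0.74 ± 0.06 and 0.64 ± 0.06). PARP12, which is recruited to stress granules, was at -0.62 ± 0.10 at 2 h and 0.45 ± 0.10 at 24 h in OCIAML-3, with 24 h minus 2 h at 1.08 ± 0.10 (limma, adjusted p = 1.32e-10).

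The last 2 measured members are IFI6 and XAF1. IFI6, a mitochondrial and endoplasmic reticulum protein that protects cells from death, rose in Molm-14 at 24 h (1.55 ± 0.15), from a mean of 1.72 ± 0.211 to 5.13 ± 1.31 CPM (SD, n = 4 each), and was at 0.61 ± 0.17 in OCIAML-3. XAF1, an antagonist of the apoptosis inhibitor XIAP, rose in OCIAML-3 at 24 h (1.29 ± 0.10) and was at 0.21 ± 0.09 in Molm-14. Its exons overlap those of the RNA gene PRAL on the other strand.

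The lines were compared directly through the difference of their responses, OCIAML-3 minus Molm-14. At 2 h, 2 members had a larger response in OCIAML-3 by the call rule (2.12% of all genes), IFIT2 (2.34 ± 0.54) and IFIT5 (1.12 ± 0.28), and 2 a smaller one (3.52%), ISG20 (-1.5 ± 0.40) and IFNAR2 (-1.02 ± 0.06). IFIT5 lay below DMSO in Molm-14 at 2 h. Several of these calls ended under an alternative: IFIT2 (0.74) and IFIT5 (0.88) with 1 CPM added, IFIT5 without OCIAML-3 2 h replicate 2 (0.94), IFNAR2 with library totals (-0.98) and without OCIAML-3 DMSO replicate 4 or 2 h replicate 4 (-0.99 each), and IFIT5 and ISG20 by limma treat at 0.5. By adjusted p alone, 19 members had a larger and 3 a smaller response at 2 h (19.2% and 19.5% of all genes), and 27 and 9 at 24 h (28.6% and 36.8%). At 24 h, 10 members had a larger response in OCIAML-3, or 20%, against 8.09% of all genes, and 1 a smaller one, ISG20, against 9.75%. The 10 were IFIT2 (3.02 ± 0.56), SAMD9L (1.85 ± 0.14), STAT2, OAS1 (1.82 ± 0.14), CMPK2 (1.76 ± 0.17), IFIT1 (1.69 ± 0.39), SAMD9, XAF1 (1.07 ± 0.14), TRIM25 (1.02 ± 0.07) and DHX58 (1.02 ± 0.35). At 24 h, DHX58 lost its call by limma voom (0.93), with the replicate block (0.99), by limma treat, and without Molm-14 DMSO replicate 2, 3 or 4, 24 h replicate 3, or OCIAML-3 DMSO replicate 3 or 4 (from 0.90 to 0.996). IFIT1 lost it with 1 CPM added (0.98), TRIM25 without OCIAML-3 DMSO replicate 3 (0.98), XAF1 without OCIAML-3 24 h replicate 4 (0.95) and ISG20 by limma treat. For the 3 members called in Molm-14 alone, the differences at 24 h were -0.94 ± 0.23 for IFI6, -0.73 ± 0.09 for IFI16 and -0.46 ± 0.14 for MX2, smaller in OCIAML-3 at an adjusted p of 0.000644, 2.14e-08 and 0.00594 by limma but under the fold limit.

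**Figure D4:**
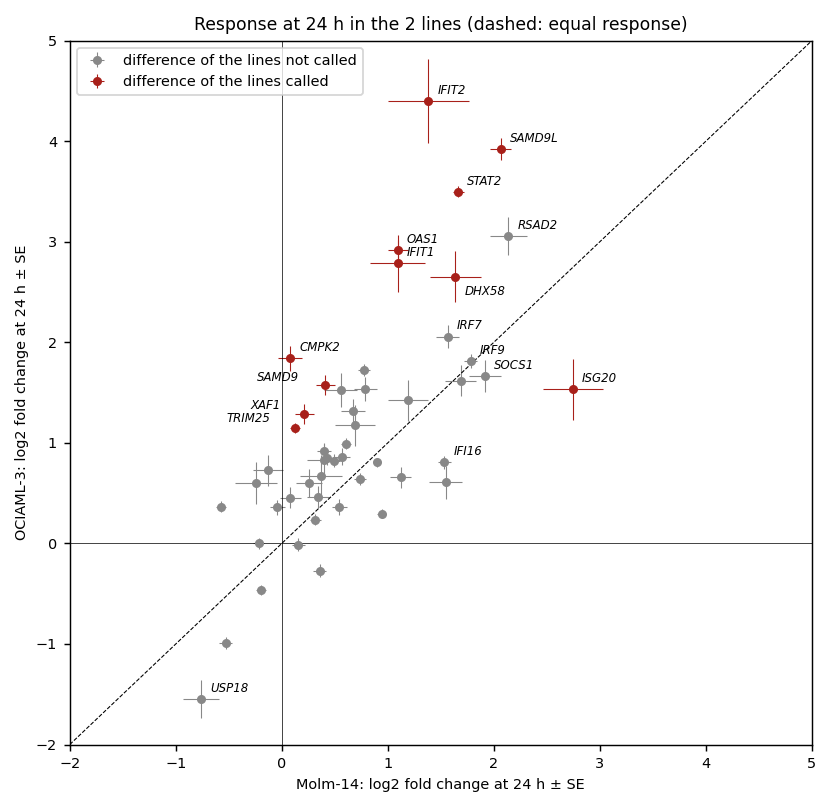
Each point is 1 of the 50 members, with its log2 fold change at 24 h in Molm-14 on the x axis and in OCIAML-3 on the y axis, with standard errors. Red marks the 11 members whose difference between the lines was called, 10 above the dashed line of equal response and ISG20 below it.

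Members also differed between the lines before any drug, on the higher side about as often as genes in general. In DMSO, 9 members were higher in OCIAML-3 than in Molm-14 by the call rule, or 18%, the same as the 17.9% of all genes. Lower were 11, or 22%, beside 12.2% of all genes. By adjusted p alone 22 of the 50 were higher, close to the 45% of all genes, and 24 lower, beside 37.4%. The largest differences were MX2 (4.13 ± 0.10), RSAD2 (2.33 ± 0.17), IFI16 (2.30 ± 0.06) and IFI6 (2.03 ± 0.15) on the higher side, and IFIT5 (-3.24 ± 0.20), IFIT2 (-2.59 ± 0.38), PARP12 (-2.26 ± 0.10) and SOCS1 (-1.98 ± 0.15) on the lower side. The median of the 50 was 0.02. IFNAR2, IRF9 and JAK1 were higher in OCIAML-3 by 0.84, 0.84 and 0.57, short of a call. These DMSO libraries also enter each drug comparison of their line, so the differences in DMSO and in response are given side by side and not related to each other.

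The rest of the pathway was read from lists of genes that are not members. Of 20 interferon genes of types I and III, 0 were in the table, so ligand RNA was not analysed here. Among 15 measured sensors and adaptors, 2 rose in Molm-14 at 2 h (IRF5 and RIGI; 13.3%, beside 4.3% of all genes), and 2 rose and 1 fell at 24 h (13.3% and 6.67%, close to the 11.4% and 6.57% of all genes). In OCIAML-3, 1 fell at 2 h (6.67%, beside 3.35%), and 4 rose and 1 fell at 24 h (26.7% and 6.67%, beside 18.4% and 17.1%). IRF5, a factor of the sensor pathways, was at 1.19 ± 0.08 and 1.79 ± 0.08 in Molm-14 and 0.86 ± 0.08 and 2.32 ± 0.08 in OCIAML-3 (log2 fold change ± SE at 2 and 24 h). RIGI, the sensor of short double-stranded RNA, was at 1.94 ± 0.11 and 1.06 ± 0.11 in Molm-14 and 0.60 ± 0.11 and 1.84 ± 0.12 in OCIAML-3 (log2 fold change ± SE). TRAF3, an adaptor of interferon induction, fell in 3 comparisons, by 1.25 ± 0.06 in Molm-14 at 24 h and by 1.11 ± 0.06 and 2.5 ± 0.07 in OCIAML-3.

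Among 14 measured genes of the type II (gamma) pathway, the counts higher and lower were 0 and 2 in Molm-14 at 2 h (0% and 14.3%, beside 4.3% and 2.98% of all genes), 3 and 2 at 24 h (21.4% and 14.3%, beside 11.4% and 6.57%), 1 and 0 in OCIAML-3 at 2 h (7.14% and 0%, beside 3.23% and 3.35%) and 5 and 0 at 24 h (35.7% and 0%, beside 18.4% and 17.1%). The genes that fell did so in Molm-14: the chemokine CXCL10 at both times (-2.56 ± 0.32 and -3.17 ± 0.32), the GTPase GBP5 at 2 h (-1.10 ± 0.16) and WARS1, a tRNA synthetase, at 24 h (-1.33 ± 0.03, the smallest adjusted p of the list there). In OCIAML-3, CXCL10 was at -0.14 ± 0.35 and WARS1 at -0.37 ± 0.04 at 24 h. JAK2, a kinase of the gamma receptor, rose at 24 h in both lines (1.09 ± 0.06 and 1.96 ± 0.07), as did CIITA, the activator of MHC class II genes (1.14 ± 0.10 and 2.39 ± 0.11). Of 16 negative regulators of JAK-STAT signalling beyond SOCS1 and USP18, 1 rose in Molm-14 at 2 h (SOCS3, 1.19 ± 0.21; 6.25%, beside 4.3%), 2 at 24 h (PTPRC and CISH; 12.5%, close to 11.4%), and 2 rose (PTPRC and SOCS2; 12.5%, beside 18.4%) and 1 fell (PTPN11, -1.31 ± 0.06; 6.25%, beside 17.1%) in OCIAML-3 at 24 h. In 43 further interferon-induced genes, 4 rose in Molm-14 at 2 h (9.3%, beside 4.3%) and 11 rose and 1 fell at 24 h (25.6% and 2.33%, beside 11.4% and 6.57%). In OCIAML-3, 2 rose at 2 h (4.65%, near the 3.23% of all genes) and 13 rose and 2 fell at 24 h (30.2% and 4.65%, beside 18.4% and 17.1%). PNPT1, a mitochondrial RNA exonuclease, fell at 24 h in both lines (-1.17 ± 0.06 and -1.41 ± 0.06). TRIM38, a feedback ligase, rose in all 4 comparisons, from 1.21 ± 0.05 to 1.73 ± 0.05. The medians of these 43 were 0.10, 0.35, 0.14 and 0.61 in the order Molm-14 at 2 and 24 h, OCIAML-3 at 2 and 24 h.

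As a check of the drug, 10 of 10 measured genes of ERK output, the pathway downstream of RAS, fell in Molm-14 at 2 h, 6 at 24 h, 9 in OCIAML-3 at 2 h and 10 at 24 h. Of all genes, 2.98%, 6.57%, 3.35% and 17.1% fell, in the same order. Effective library sizes were from 15.4 to 22.4 M reads. All 9 myeloid markers were in the table. Their summed level overlapped DMSO at 2 h in both lines and was above it at 24 h: it was from 1136 to 1197 CPM in Molm-14 DMSO, from 1131 to 1261 at 2 h and from 1765 to 1850 at 24 h, and from 2244 to 2374, 2323 to 2482 and 6973 to 7369 CPM in OCIAML-3. In OCIAML-3 the mean of LYZ alone went from 574 to 3793 CPM between DMSO and 24 h, while that of MPO was 2.93 and 0.709 CPM in Molm-14 and 2.67 and 1.92 CPM in OCIAML-3. Single markers moved both ways at 2 h, which the sum does not show. Means of CSF1R in DMSO, at 2 h and at 24 h were 7.08, 11.9 and 88.1 CPM in Molm-14. In OCIAML-3 they were 13.2, 28.6 and 173 CPM. CD33 went from 32.2 to 24.5 CPM between DMSO and 2 h in Molm-14 and from 75.7 to 64.6 CPM in OCIAML-3. The part of these markers in the members' change was not tested. Of the markers of other cell types, 4 of 5 of T cells (CD3D, CD3E, CD3G and CD2), 5 of 5 of red cells and platelets and 2 of 4 of plasmacytoid dendritic cells (CLEC4C and LILRA4), the classical makers of type I interferon, were not among the genes of the table. The other 2 dendritic markers went different ways in Molm-14, where the means in DMSO, at 2 h and at 24 h were 2.02, 1.51 and 0.764 CPM for TCF4 and 38.0, 65.2 and 99.3 CPM for IL3RA. In OCIAML-3 they were 37.1, 33.0 and 37.5 CPM for TCF4 and 5.01, 6.76 and 20.4 CPM for IL3RA. Of 5 epithelial and stromal markers, EPCAM, KRT8 and COL1A1 were not among the genes of the table, and the summed level of the other 2 was from 87.4 to 89.8, 172 to 174 and 136 to 145 CPM over the Molm-14 groups and from 31.3 to 34.4, 30.8 to 36.5 and 72.6 to 76.3 CPM over those of OCIAML-3, nearly all of it PECAM1, which leukocytes also express (means of 81.8, 164 and 133 CPM in Molm-14). The 1 measured T-cell marker, TRAC, had means of 13.0, 4.04 and 3.90 CPM in Molm-14 and the 1 measured B-cell marker, PAX5, of 20, 12.7 and 8.48 CPM, and both were under 1 CPM in OCIAML-3. The part of these markers in the results was not tested either.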

How the data were processed

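Poly(A) RNA of 23 libraries in 6 groups was analysed, and the labels give all of them 1 batch. The authors deposited log2 CPM for 13033 gene symbols, scaled to effective library sizes. The genome build was hg38 (GRCh38), and RSEM 1.3.3, limma 3.38.3, edgeR 3.24.3, STAR 2.7.8a, MultiQC 1.28 and Trimmomatic 0.36 are the tools named, per the submitters' processing notes. How strand was handled and how genes were filtered is not given in the sources used here. Exons of IFNAR2, TRIM25 and EIF2AK2 also overlap those of IL10RB-DT, DGKE and GPATCH11, in this order, on the opposite strand. Some of their reads may not be told apart. All libraries share the lowest log2 value -3.26, or 0.105 CPM, which is a prior count of 1.96 reads at the mean size, so fold changes understate genes with few reads and printed CPM include that prior. Effective sizes, recovered from the spacing of low values, were from 15.4 to 22.4 M reads (median 18.5), and within 0.05 of a whole number of reads lay from 74.5% to 82.4% of the low values (20 reads or fewer), so no count test was used as the main one.

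A single fit of 6 group means was made with limma 3.58.1 in R 4.3.3 (empirical Bayes with trend and robust options), with Benjamini-Hochberg adjustment over 13033 genes. Calls needed an adjusted p under 0.05 and a log2 fold change of at least 1 in size. The scripts were tested on simulated data. The labels do not say whether replicates were separate cultures, so p-values measure the spread of these libraries, which may be technical. Drug comparisons of a line share its DMSO libraries, and no relation between them is tested. Values of each library are given for the receptor chains, kinases, transcription factors, SOCS1 and USP18, and for the 4 largest called changes of each comparison with DMSO. Other lists are named by up to 4 genes of smallest adjusted p. Members and lists were chosen with earlier results of these data known. Gene positions come from the GENCODE annotation (GRCh38) and promoters from RefSeq (GRCh38.p14). Alternatives were other scalings, 1 CPM added before the log, genes of at least 5 CPM, adjusted p alone, a test against a log2 fold change of 0.5 (limma treat), a fit per line, no trend or robust option, limma voom on recovered reads, a replicate block, and leaving out each library.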

Additional observations from a re-analysis of the deposited data

Results flagged for a closer look

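In groups of 4 libraries, the gap between the extreme library and its nearest neighbour, as a share of the group's range on the log2 scale, passed Dixon's 95% limit for 4 values in 7 of 75 groups tested, where chance gives about 1 in 20. In OCIAML-3 at 2 h, replicate 4 was low for IFNAR2 (share 0.922; 80.7 CPM against 87.9 to 88.5) and for JAK1 (0.926; 102 against 106 CPM). In Molm-14 at 2 h, replicate 1 was high for IRF7 (0.91; 54.4 CPM against 43.6 to 44.5) and replicate 4 low for ISG20 (0.967; 4.59 against 5.62 to 5.66). In Molm-14 at 24 h, replicate 4 was low for SOCS1 (0.848; 25.8 CPM against 33.6 to 35.3) and replicate 1 low for RSAD2 (0.938; 1.51 against 1.91 to 1.94). The DMSO library of OCIAML-3 with the high USP18 value was replicate 3 (0.924; 4.77 CPM against 3.83 to 3.90). No flagged library lay within the range of the group it is compared with. For IFNAR2 this was no separation of the groups, since 80.7 CPM lay below the OCIAML-3 DMSO libraries (82.5 to 93.6 CPM) and the rest of its group lay among them. The OCIAML-3 libraries of USP18 at 2 h also overlapped the other DMSO libraries.

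The response to the drug differed between the lines by the call rule, with its fold limit (log2, OCIAML-3 minus Molm-14), for 4 members at 2 h: IFIT2 (2.34), IFIT5 (1.12), IFNAR2 (-1.02) and ISG20 (-1.5). Of the 50 members, 4% had a larger and 4% a smaller response in OCIAML-3, close to the 2.12% and 3.52% of all genes. At 24 h it differed for 11 members: IFIT2 (3.02), SAMD9L (1.85), STAT2 (1.83), OAS1 (1.82), CMPK2 (1.76), IFIT1 (1.69), SAMD9 (1.17), XAF1 (1.07), DHX58 (1.02), TRIM25 (1.02) and ISG20 (-1.21). That is 20% larger and 2% smaller, beside 8.09% and 9.75% of all genes. Without the fold limit, 19 members had a larger and 3 a smaller response at 2 h, and 27 and 9 at 24 h. Some calls ended under an alternative, as given above: IFIT2, IFIT5, IFNAR2 and ISG20 at 2 h, and DHX58, IFIT1, TRIM25, XAF1 and ISG20 at 24 h.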

How the results depend on the processing

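Of the 55 calls against DMSO, 40 held under all 10 alternatives and all 23 settings that leave out 1 library. Not all of these could end a call by its size. Adjusted p alone is a looser rule on the same fit and keeps every call. The fit per line and the fit without trend or robust options leave the fold changes as they are. So does leaving out a library of a group that is not compared. In these settings a call could end by its p-value alone. IFIT1 and IFIT2 in OCIAML-3 at 24 h held wherever they were tested, which was not among genes of at least 5 CPM (7 of the 55 calls have no value there). The other 13 were lost with 1 CPM added before the log, and 2 of them, DHX58 and IFIT1 in OCIAML-3 at 2 h, also by limma treat. At the same call rule 10 other member calls were gained in some alternative, limma treat gained 20 and adjusted p alone 94, and 0 changed direction. With 1 CPM added, 9 members rose in Molm-14 at 24 h and 7 in OCIAML-3 at 2 h, 3 rose in Molm-14 and 0 fell in OCIAML-3 between 2 and 24 h, 0 had a larger response in OCIAML-3 at 2 h, and 4 were late in Molm-14 and 7 early in OCIAML-3. Over all 13033 genes, those that rose then went from 1481 to 1099 in Molm-14 at 24 h and from 421 to 188 in OCIAML-3 at 2 h. Between the times, rises in Molm-14 went from 945 to 676 and falls in OCIAML-3 from 1423 to 1250. Larger responses at 2 h went from 276 to 128. Among genes of at least 5 CPM, 1 had a larger response in OCIAML-3 at 2 h, beside 231 of all 12054 such genes. With library totals as scale 1 member had a smaller one and 27 rose in OCIAML-3 at 24 h. Over all 13033 genes that scale took smaller responses at 2 h from 459 to 411, and those that rose in OCIAML-3 at 24 h from 2392 to 2904. That scale moved the level of all genes by a mean of 0.1173 (log2) in the OCIAML-3 libraries at 24 h and of -0.0555 in its DMSO libraries. Genes under 5 CPM leave the 5 CPM alternative by construction, and the cause of the other changes was not tested.

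Without the fold limit, the members higher and lower were 16 and 10 in Molm-14 at 2 h, 38 and 5 at 24 h, 28 and 4 in OCIAML-3 at 2 h, 44 and 4 at 24 h, 36 and 4 in Molm-14 and 41 and 4 in OCIAML-3 between the times, 19 and 3 for the response at 2 h, 27 and 9 at 24 h, and 22 and 24 for the lines in DMSO; 16 were early and 21 late in Molm-14 and 28 early in OCIAML-3. By limma treat at 0.5, 1 fell in Molm-14 at 2 h and 2 in OCIAML-3 at 24 h, 21 rose and 2 fell in OCIAML-3 between the times, and 5 had a larger response in OCIAML-3 at 2 h. Over all 13033 genes limma treat gave, in the same order, 789 and 3319 that fell, 2200 that rose and 2380 that fell, and 208 larger responses.

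Leaving out each of the 23 libraries gave 5 to 7 and 15 to 16 members that rose in Molm-14 at 2 and 24 h, and 9 to 11 and 22 to 23 in OCIAML-3. Of all 13033 genes, 558 to 591, 1468 to 1503, 420 to 436 and 2375 to 2404 rose in the same order. Members that fell numbered 0 to 1 in Molm-14 at 2 h (1, IFIT5, without DMSO replicate 2), 1 to 2 in OCIAML-3 at 24 h and 0 to 1 there between the times (0 without 24 h replicate 1). At 2 h 2 to 5 members had a larger response in OCIAML-3 (5 without its DMSO replicate 4) and 1 to 2 a smaller one, and 1 to 2 a smaller one at 24 h. Replicate numbers recur in the groups. After removal of group means, same-numbered libraries correlated from -0.1655 to 0.1924 in Molm-14 and from -0.448 to 0.3219 in OCIAML-3. Different-numbered ones correlated from -0.2498 to 0.3083 and from -0.3554 to 0.4034. Above 0.1 lay 4 of 12 same-numbered and 5 of 36 different-numbered pairs in Molm-14, and 2 of 10 and 10 of 30 in OCIAML-3. These ranges overlap, so whether same-numbered libraries belong together cannot be told from them. With the replicate number as a block, 5, 16, 11 and 22 members rose against DMSO and 8 and 13 between the times, and 9 had a larger response in OCIAML-3 at 24 h. Of all 13033 genes, 563, 1480, 420 and 2393 rose against DMSO and 944 and 1523 between the times, and 1048 had a larger response. A fit per line cannot give the comparisons of the lines. Depth limits genes of few reads, such as RSAD2, IFIT2 and USP18.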
